A study of Drosophila melanogaster with 32 samples.

Results

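The nuclear genes tomboy20, tomboy40, ttm2, ttm3 and ttm50 of Drosophila melanogaster encode relatives of the proteins that carry precursors into mitochondria. They were found by FlyBase symbol among the 17559 gene identifiers of the RNA-seq count tables, and 5 of 5 matched and passed the filter on low counts, which kept 13495 genes. The series covers testis with 20 ATAC-seq libraries, 8 RNA-seq libraries and 4 CAGE libraries, and the RNA-seq was made on 4 groups of 2 libraries, each from 100 pooled pairs of testes of males younger than 2 days.

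The bam group was bam -/-, grown at 22 C for 12 days without heat shock, and is labelled as enriched for spermatogonia. The 48h and 72h groups were also bam -/-, but carried Bam under a heat shock promoter. These flies grew for 9 days at 22 C, received 37 C for 30 min, and then stayed at 25 C for 48 h or 72 h, and they are labelled as enriched for young and mature spermatocytes. The aly group was aly -/-, grown at 25 C for 10 days without heat shock, and is labelled as enriched for mature spermatocytes. ATAC-seq (from 10 to 20 pairs of testes of males younger than 1 day) added a heat shock control, bam -/- without the Bam construct taken 48 h after the same shock, and a topi -/- group grown like the aly group. Between several groups the genotype, the heat shock and the temperature and length of growth change together, and their effects cannot be told apart. The labels do not say whether the 2 libraries of a group came from separate cultures, so a p-value measures only the spread between these libraries. That spread was narrow in the RNA-seq (a coefficient of variation of 2.11% beyond counting noise, 1 estimate for all genes), which makes its p-values small.

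Most mitochondrial proteins are made in the cytosol and cross the outer membrane through the TOM complex, in which Tom20 is a receptor for precursors and Tom40 forms the channel. Precursors with a targeting signal are then handed to the TIM23 complex of the inner membrane, where Tim50 receives them. tomboy20 and tomboy40 are copies of Tom20 and Tom40, ttm50 is the fly Tim50, and ttm2 and ttm3 are its relatives. In the fly male germ line, mitochondria fuse in the spermatid and elongate along the sperm tail. aly and topi belong to the testis meiotic arrest complex, on which transcription of many spermatid genes in spermatocytes depends.

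The 5 genes fell into 1 gene with RNA in every group and 4 with RNA mainly after Bam expression. tomboy20, tomboy40, ttm2 and ttm3 were near the bottom of the scale in bam, rose at 48h and rose again at 72h, and were at or near the bottom again in aly. ttm50 was at 53.8 to 97.1 CPM (counts scaled to a common library size, with TMM factors) in the group means, with its highest level in aly. The name of testis copies therefore described 4 of the 5 genes in these samples, and no tissue other than testis was measured.

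tomboy20 (FBgn0037828), the Tom20 copy, spans 3R:10735277-10735957 of build dm6. The bam libraries held 7 and 18 reads of it, the 48h libraries 1066 and 1194, the 72h libraries 3844 and 4296, and the aly libraries 0 and 0. The mean normalised count was 0.552 ± 0.314 CPM for bam, 37.0 ± 0.278 for 48h and 199 ± 2.63 for 72h (SD, n = 2). Both 72h libraries were above both 48h libraries, which were above both bam libraries, and neither aly library held a count. The share of all genes whose groups separate in this way was not counted. This order and those given below therefore describe levels only. A count of 0 in both aly libraries allowed a level of up to 0.0681 CPM (3 counts over the group). tomboy20 rose 65.3-fold from bam to 48h (log2 6.03, SE 0.12, edgeR quasi-likelihood test, Benjamini-Hochberg adjusted p = 7.45e-28) and a further 5.38-fold to 72h (adjusted p = 4.76e-30). Against that floor it was at least 2928-fold lower in aly than at 72h (edgeR adjusted p = 8.26e-36) and at least 544-fold lower than at 48h.

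tomboy40 (FBgn0033074), the copy of the channel protein Tom40, spans 2R:6225634-6226884 and lies wholly inside the gene bin3 (2R:6214568-6240602). The bam libraries counted 96 and 98 reads, those of 48h 1115 and 1128, those of 72h 4922 and 5341, and those of aly 63 and 56. The means were 4.37 ± 0.219, 36.8 ± 2.37, 251 ± 1.92 and 2.72 ± 0.428 CPM in that order (SD, n = 2). No 2 groups overlapped, with 72h highest and aly lowest. tomboy40 rose 8.43-fold from bam to 48h (log2 3.07, SE 0.08, edgeR adjusted p = 4.85e-26) and 6.83-fold from 48h to 72h (adjusted p = 4.47e-33), and fell 92.9-fold from 72h to aly (edgeR adjusted p = 1.98e-37). The library kit keeps strand, but the strand setting of the counting is not given, so reads of bin3 and tomboy40 cannot be told apart for certain. The host gene went the other way over the time course, from 221 CPM (bam) through 74.1 (48h) to 60.7 (72h), with 59.8 for aly, and its part in the low tomboy40 counts of bam and aly was not tested.

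ttm2 (FBgn0035124), a Tim50 relative, spans 3L:275155-276667. Its raw counts were 10 and 15 for bam, 1377 and 1535 for 48h, 2758 and 3098 for 72h, and 31 and 43 for aly. The means were 0.558 ± 0.123, 47.7 ± 0.197, 143 ± 2.41 and 1.67 ± 0.260 CPM (SD, n = 2). The groups did not overlap, with 72h highest and bam lowest. It rose 84.1-fold from bam to 48h (log2 6.39, SE 0.11, edgeR adjusted p = 1.40e-30) and 3.00-fold from 48h to 72h (adjusted p = 1.80e-26), and it fell 85.1-fold from 72h to aly (edgeR adjusted p = 2.59e-35).

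ttm3 (FBgn0032971), the other Tim50 relative, spans 2L:22079632-22080738, and no annotated gene lies within 1000 bp of it. Raw counts of ttm3 were 7 and 4 for bam, 450 and 524 for 48h, 1578 and 1714 for 72h, and 2 and 3 for aly. The means were 0.251 ± 0.112, 15.9 ± 0.557, 80.6 ± 0.561 and 0.113 ± 0.0237 CPM (SD, n = 2). The 72h libraries were highest, and the bam and aly libraries did not overlap although both groups were near 0. ttm3 rose 63.2-fold from bam to 48h (log2 5.98, SE 0.18, edgeR adjusted p = 3.80e-24) and 5.05-fold from 48h to 72h (adjusted p = 1.39e-26), and fell 679-fold from 72h to aly (edgeR adjusted p = 2.79e-32). The last fold rests on 5 counts in aly, and the ratio of summed counts had a 95% counting interval of 304 to 2189.5.

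ttm50 (FBgn0250874), the fly Tim50 that takes precursors over from the outer membrane, spans X:2730077-2732190. Raw counts of ttm50 were 1141 and 1251 for bam, 1700 and 1833 for 48h, 1355 and 1512 for 72h, and 1989 and 2295 for aly. The means were 53.8 ± 0.0119, 57.9 ± 1.12, 70.2 ± 0.850 and 97.1 ± 2.56 CPM (SD, n = 2). The groups did not overlap, so with this narrow spread between libraries small changes also kept groups apart. How many of all genes had groups that did not overlap was not counted. On the log2 scale the whole range of ttm50 was smaller than any 1 step of the 4 copies up to 72h. The edgeR log2 change of ttm50 was 0.11 from bam to 48h (SE 0.04, adjusted p = 0.0120) and 0.28 from 48h to 72h (adjusted p = 7.20e-08). It was 0.47 from 72h to aly (SE 0.04, edgeR adjusted p = 3.02e-13). None of these 3 calls held with the wider spread of the CAGE libraries (adjusted p = 0.717, 0.367 and 0.0869), and the change from 48h to 72h was -0.05 with scaling by library size alone.

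**Figure D1:**
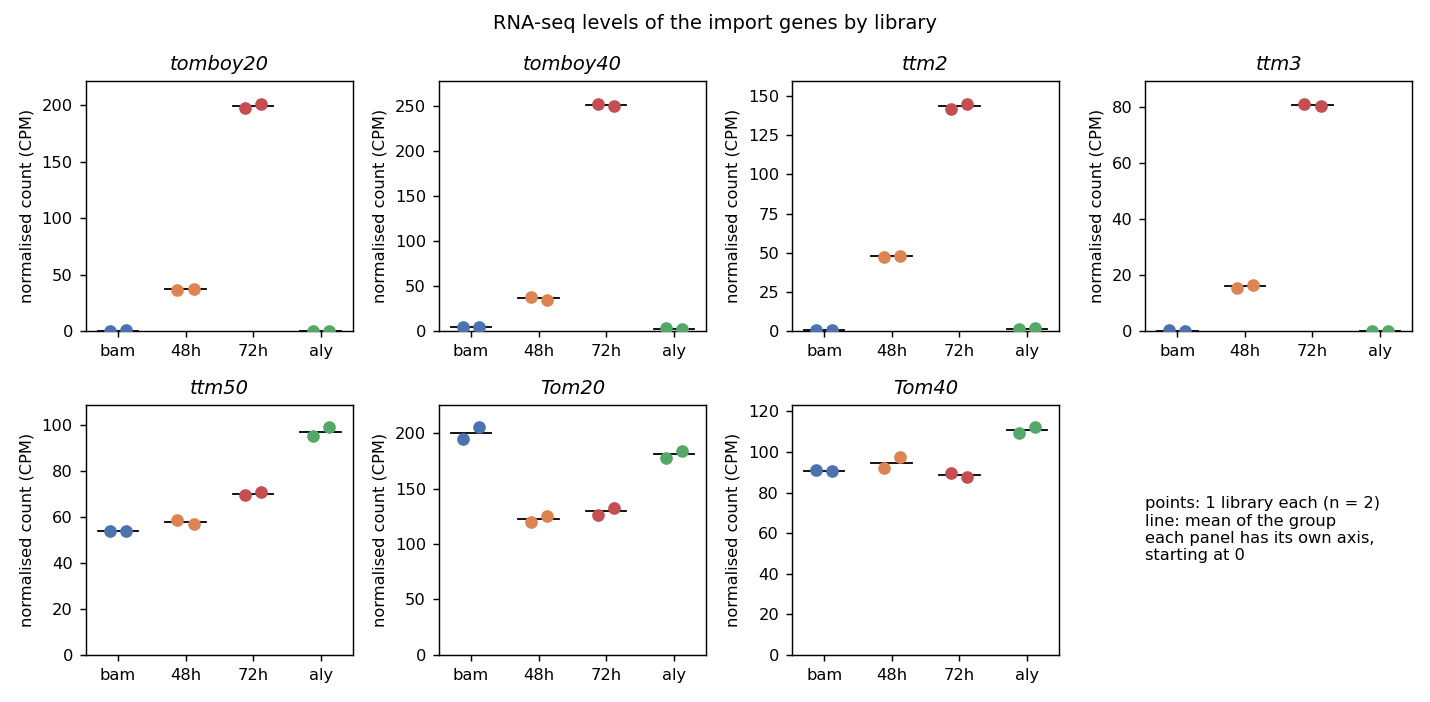
Normalised RNA-seq counts (CPM, linear axis from 0, 1 scale per panel) of the 5 genes and of Tom20 and Tom40, by group; points are the 2 libraries of a group and lines their mean. tomboy20, tomboy40, ttm2 and ttm3 peak at 72h (80.6 to 251 CPM) and are at or near 0 in bam and aly, while ttm50, Tom20 and Tom40 lie above 50 CPM in every library.

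The order of the group levels was bam, aly, 48h, 72h for ttm2 and aly, bam, 48h, 72h for tomboy20, tomboy40 and ttm3. From bam to aly, ttm3 did not pass the edgeR test (log2 -1.09, SE 0.64, adjusted p = 0.154). tomboy40 fell by 0.69 on the log2 scale (SE 0.15, edgeR adjusted p = 0.000112). tomboy20 was at least 8.25-fold lower in aly than in bam, from 25 counts in bam against 0. ttm2 went the other way and was 2.97-fold higher in aly than in bam (log2 1.57, SE 0.27, edgeR adjusted p = 3.09e-06). Both ttm2 levels were below 2 CPM in every library.

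Over all 5 genes, 5 rose from bam to 48h, where 44.1% of all genes tested were called higher and 41.8% lower at an edgeR adjusted p below 0.05. 4 of 5 rose by 2-fold or more, against 30.2% of all genes. From 48h to 72h again 5 of 5 rose, against 45.9% of genes called higher and 34.3% called lower, and 4 rose by 2-fold or more, against 28.8%. From bam to 72h the count was 5 of 5 against 46.1% higher and 43.6% lower, and 4 of 5 against 36.7% by 2-fold or more. With so many genes called, a call by itself separated these genes little from the rest, and the size of the changes carried the description. The median log2 change of the 5 genes from bam to 72h was 7.98, against 0.06 over all genes. Ranked by size of rise among 13495 genes, tomboy20 was at 1106, ttm3 at 1183, ttm2 at 1420, tomboy40 at 2441 and ttm50 at 6072. Many other genes thus rose as much or more.

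From 72h to aly, 4 of the 5 genes fell, where 45.9% of all genes were called lower, and 1, ttm50, rose, where 42.2% were called higher. The 4 fell by 2-fold or more, against 33.6% of genes. Ranked by size of fall among 13495 genes, ttm3 was at 472, tomboy40 at 1364 and ttm2 at 1406. tomboy20 was at 2, a rank that rests on 0 counts in aly. From 48h to aly, the same split of 4 lower and 1 higher stood against 42.8% of genes called lower and 39.8% called higher. The 4 genes again fell by 2-fold or more, against 24.5%. From bam to aly, 2 rose (ttm2 and ttm50), 2 fell (tomboy20 and tomboy40) and ttm3 was not called, with 41.7% of all genes called higher and 40.5% called lower. Comparisons that share a group share its libraries, so these counts are not independent of each other.

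Markers of other cells were measured beside these changes, from lists of 4 to 8 genes. Of all genes tested, 46.1% were called higher and 43.6% lower from bam to 72h. From 72h to aly these shares were 42.2% and 45.9%, and from bam to aly 40.5% were called lower. 8 of 8 spermatocyte markers rose from bam to 72h, and their summed level was 64.3 to 64.5 CPM for bam, 1625 to 1627 for 48h, 1813 to 1830 for 72h and 4420 to 4436 for aly. From 72h to aly 6 of these markers rose and 2, aly and fzo, fell, so their sum was highest in aly, where the 4 copies were at or near 0, and lowest in bam, where the copies were also low. The summed level of 4 detected spermatogonial markers was 1545 to 1571 CPM in bam and 298 to 352 in the other libraries. Most of that sum was Df31, at 1242 CPM in bam. bgcn had group means of 146 to 153 CPM, and bam RNA had a mean of 96.7 CPM in bam and 96.6 in aly. Thus 2 of the 4 markers were called lower from bam to aly, against 3 from bam to 72h. Accessory gland and ejaculatory bulb markers moved in the same direction as the 4 copies: 5 of 5 rose from bam to 72h and 5 of 5 fell from 72h to aly. Their summed level was 81.9 to 85.3 CPM for bam, 538 to 542 for 48h, 1967 to 1998 for 72h and 88.2 to 88.5 for aly, and the part of such tissue in the result was not tested. None of these 5 markers was at 0 in the bam, 48h or 72h libraries. Summed sheath muscle markers were 1545 to 1549.5 CPM in bam and 599 to 701 elsewhere, summed cyst and hub markers 232 to 234 and 96.4 to 149, and summed fat body markers 545 to 558 and 125 to 221. Most of the cyst and hub sum in bam was Fas3, at 139 CPM. Of the cyst and hub markers, 3 fell from bam to 72h and 2, eya and upd1, rose. In bulk testes, fewer cells of a type and less RNA per cell cannot be told apart.

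Library totals ran from 20064489 to 28984275 counts, and the mitochondrial genome held 11.4% to 19.1% of them. In the bam group bam RNA was at 96.7 CPM, close to the 96.6 of the aly group, against 29.4 and 12.9 in the 48h and 72h groups. aly RNA was at 70.8 CPM in the aly group and 97.2 at 72h. Which part of either gene its allele removes is not given, so these levels do not check the genotypes.

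Tom20 and Tom40, the general receptor and channel, did not follow their copies. The mean of Tom20 was 200 ± 7.18 CPM for bam, 122 ± 3.90 for 48h, 129 ± 4.94 for 72h and 181 ± 4.34 for aly (SD, n = 2). Tom20 thus fell from bam to 48h (log2 -0.71, SE 0.03, edgeR adjusted p = 2.79e-20) while tomboy20 rose. Tom40 was at 90.7 ± 0.380, 94.7 ± 3.79, 88.7 ± 1.30 and 111 ± 2.03 CPM. Its change from bam to 72h did not pass the edgeR test (log2 -0.03, SE 0.03, adjusted p = 0.371) and turned to 0.17 with DESeq2's size factors.

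The ratio of a copy's count to the count of its general relative removes scaling between libraries; it is not corrected for gene length, so only its change between groups was read. Per 100 counts of Tom20, tomboy20 had 0.213 and 0.419 in the bam pair of libraries, 30.8 and 29.8 in the 48h pair, and 157 and 151 in the 72h pair (prior count 2). The 2 aly libraries held none, and their ratio is set by the prior count alone. tomboy40 had 5.06 and 4.75 counts per 100 of Tom40 for bam, 41.9 and 36.2 for 48h, 282 and 285 for 72h, and 2.84 and 2.22 for aly. ttm2 had 1.03 and 1.36 counts per 100 of ttm50 for bam, 81.0 and 83.8 for 48h, 203 and 205 for 72h, and 1.64 and 1.95 for aly. ttm3 had 0.772 and 0.481 counts per 100 of ttm50 for bam, 26.6 and 28.7 for 48h, 116 and 113 for 72h, and 0.186 and 0.213 for aly. In all 4 pairs the ratio was highest in the 72h libraries and second in the 48h libraries. On the log2 scale the ratio changed by 9.01 for tomboy20, 5.85 for tomboy40, 7.43 for ttm2 and 7.56 for ttm3 from bam to 72h. Between single libraries the change was 8.49 to 9.52 for tomboy20, 5.80 to 5.90 for tomboy40, 7.23 to 7.63 for ttm2 and 7.20 to 7.92 for ttm3. With a prior count of 0.5, 2 ratio changes moved by at least the pair's largest SD between libraries and 14 did not.

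**Figure D2:**
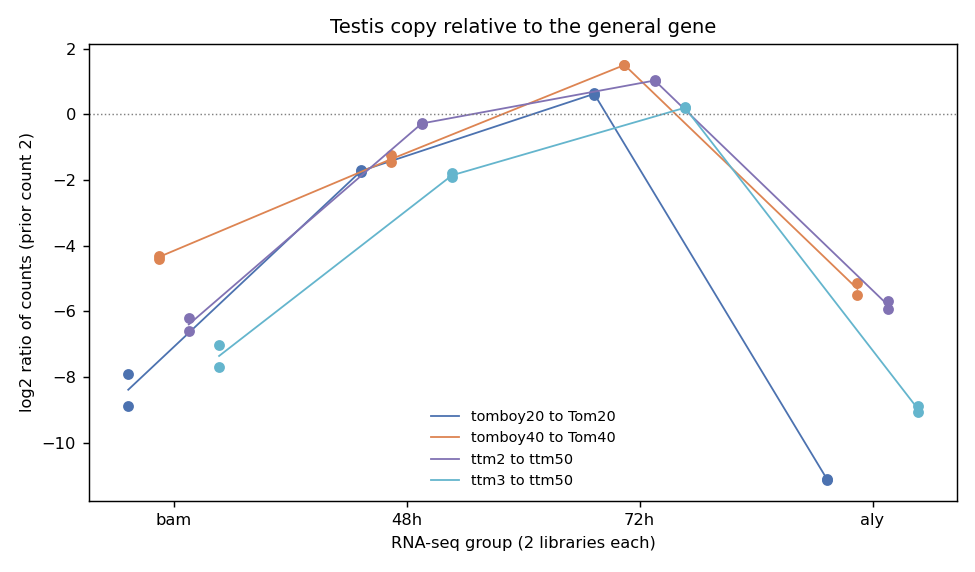
Log2 ratio of the raw count of each copy to that of its general relative (prior count 2) in each RNA-seq library; points are libraries and lines join the group means. All 4 ratios are highest at 72h, and the aly value of tomboy20 to Tom20 rests on 0 counts. Whether a ratio lies above 0 also depends on gene length and was not read.

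Levels between genes were set side by side only per kb of gene span, introns included. At 72h tomboy20 was at 293 CPM per kb, tomboy40 at 201, ttm2 at 94.7, ttm3 at 72.8 and ttm50 at 33.2, and Tom20 and Tom40 were at 71.8 and 28.7. In bam the order was turned over, with Tom20 at 111 CPM per kb, Tom40 at 29.4 and ttm50 at 25.4, and tomboy40, tomboy20, ttm2 and ttm3 at 3.49, 0.810, 0.369 and 0.227. Spans of Tom20 (1803 bp) and Tom40 (3086 bp) are longer than those of their copies (681 and 1251 bp), and how much of each span is intron was not used here.

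Of 25 general import genes listed, 17 matched a symbol and 15 were tested. From bam to 72h, 10 rose and 4 fell, with a median log2 change of 0.81, and from 72h to aly 4 rose and 9 fell, with a median of -0.26. Of all genes tested, 46.1% were called higher and 43.6% lower from bam to 72h. From 72h to aly these shares were 42.2% and 45.9%. Tim13, a small TIM chaperone of the space between the membranes, had the largest changes of the 15 in both comparisons. mge, Alr, Tom7, Tim8, Tim9a and UQCR-C1 also rose from bam to 72h and fell from 72h to aly, by less. Tim13 means were 0.229 CPM (bam), 21.0 (48h), 111 (72h) and 0.855 (aly), a rise of log2 8.92 (SE 0.12, edgeR adjusted p = 9.98e-34) and then a fall of log2 -7.00 (SE 0.10, edgeR adjusted p = 3.15e-33). Tom70, another receptor of the outer membrane, rose 2.60-fold from bam to 72h (edgeR adjusted p = 3.75e-30) and stayed 2.54-fold above bam in aly (adjusted p = 1.30e-29). mge, the fly Tom22, had means of 82.4 CPM (bam), 151 (48h), 239 (72h) and 83.4 (aly), and fell 2.87-fold from 72h to aly (edgeR adjusted p = 5.21e-29). Tim17b, a channel subunit of the TIM23 complex, went down throughout, at 336, 158, 126 and 105 CPM in the same order (bam to 48h log2 -1.09, SE 0.03, edgeR adjusted p = 2.97e-26).

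Further copies of import and folding genes changed in the directions of the 4 copies. Of 8 listed relatives of Tim17, the small TIMs and Hsp60, 7 were tested, since Tim9b was listed at 0 in every library. The sources used here do not name the annotation behind the counts, so that 0 was not read as absence of its RNA. All 7 rose by 2-fold or more from bam to 72h, with a median log2 change of 7.26, against 36.7% of all genes. From 72h to aly 7 fell, with a median of -6.48, where 45.9% of all genes were called lower. Tim17a1 was at 0.313, 1.34, 49.1 and 0.0240 CPM in bam, 48h, 72h and aly, and Tim17a2 at 0.457, 4.44, 67.4 and 0.735. These 2 rose mainly after 48h, by log2 5.19 and 3.92 from 48h to 72h. Tim17b1 was at 0.0686, 37.2, 62.0 and 1.31 CPM, and Tim17b2 at 0.407, 58.4, 191 and 0.160, so that most of their log2 change came before 48h (9.00 and 7.15). Hsp60B, Hsp60C and Hsp60D, relatives of the matrix chaperonin Hsp60A, reached 188, 625 and 178 CPM at 72h. Of the 7, Hsp60C had the smallest fold from 72h to aly, where it was at 138 CPM, 4.53-fold below 72h (edgeR adjusted p = 5.29e-36) and 4.42-fold above bam (adjusted p = 9.11e-32). From bam to aly, 4 of the 7 rose, 2 fell and Tim17a2 was not called, where 41.7% of all genes were called higher and 40.5% lower. With bam replicate 1 or either aly library left out, 1 of the 7 was called lower.

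**Figure D3:**
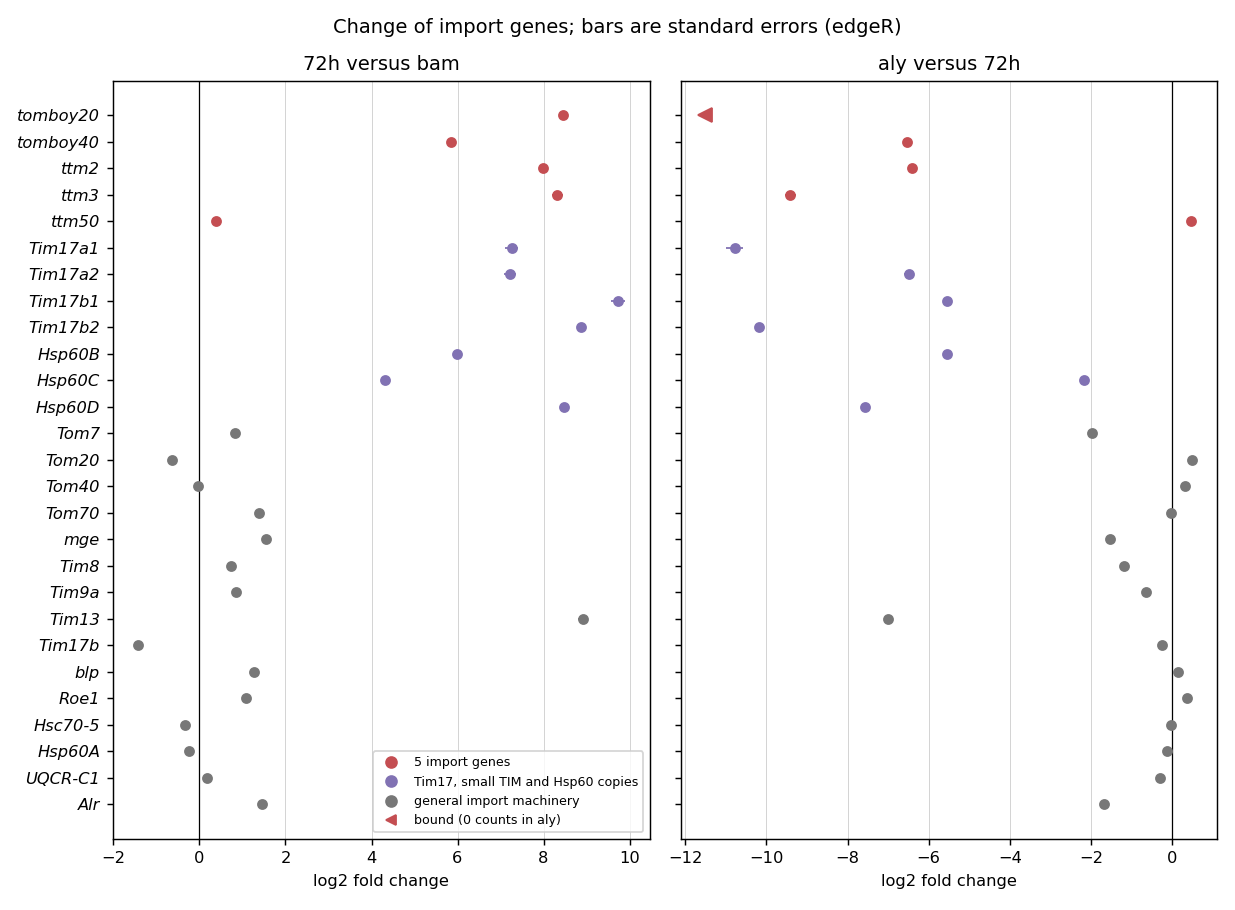
Log2 fold change (edgeR, bars are standard errors, mostly smaller than the points) of the 5 genes, of 7 further copies and of 15 general import genes, for 72h against bam and aly against 72h. The 4 copies, the 7 further copies and Tim13 lie far from 0 in both panels, ttm50 lies near the other general genes, and the triangle is the bound of tomboy20, which has 0 counts in aly.

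The tested genes with a symbol were also ranked by how like their pattern was to each gene's over the 8 libraries (Euclidean distance of centred log2 CPM, 13265 genes, a description with no test). The nearest to tomboy20 were CG31820 (distance 0.684), CG7295 (0.698) and Ubc87F (1.05). CG7295 was also at 0 in both aly libraries, with 215 CPM at 72h. The nearest to tomboy40 were Acp53Ea (0.612), which encodes an accessory gland protein, CG33191 (0.630) and TTLL1A (0.633). Hex-t2, a testis hexokinase, was nearest to ttm2 (0.274), at 1.09, 95.9, 271 and 2.92 CPM in bam, 48h, 72h and aly, followed by CG31178 (0.360) and CG15128 (0.409). robl22E, a roadblock-type dynein light chain gene, was nearest to ttm3 (0.346), followed by Pif2 (0.435) and CG15059 (0.468). Nearest to ttm50 were CG13005 (0.154), Pis (0.164) and ric8a (0.169). This distance grows with the size of a gene's changes and with noise at low counts, so the nearest distances of different genes were not compared. Among the 5 genes themselves, ttm2 and ttm3 were closest (2.72), and ttm50 was 7.60 or more away from each of the others.

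Open chromatin was read from the authors' ATAC-seq peak lists, 1 list for each of 6 conditions, so that no replicate check was possible and no test was made. A peak was counted when it reached within 100 bp of either gene end, and the strand, and so which end is the start, was not used here. In bam, 1 of the 5 genes had such a peak, where 57.4% of 13946 placed genes did, and in the heat shock control it was also 1 of 5, where 58.4% did. At 48h 3 of 5 had one, against 67.1% of genes, and at 72h 5 of 5, against 70.3%. In aly and in topi it was again 1 of 5, against 60.4% and 60.3%. The gene with a peak in all 6 lists was ttm50. The other 4 had a peak at 72h and none in bam, aly or topi, a pattern shown by 1250 of 13946 genes (8.96%), by 4 of 8 listed further copies (Tim17b2, Hsp60B, Hsp60C and Hsp60D) and by 3 of 17 general import genes (mge, Tim13 and Alr). Tom20 and Tom40 also had no peak in this window in bam, the heat shock control or topi, with RNA at 200 and 90.7 CPM in bam. Tom20 had one at 48h and in aly, and Tom40 at 48h, 72h and in aly. In bam the strongest listed peak near Tom20 (fold 6.15) had its summit 284 bp beyond the higher end. That of Tom40 (fold 6.87) lay 470 bp inside the lower end. For both genes a list without a peak in this window did not mean low RNA. The lists also differ in size, with 30062 peaks for bam, 35547 for 72h, 29559 for aly and 38078 for topi. Their median -log10 q was 15.1, 23.1, 17.5 and 16.7 in that order. Whether a missing peak reflects a less sensitive list was not tested. The pattern of the 4 copies depended on the window and the threshold. With 500 bp, 1 member, ttm3, kept it, against 6.15% of genes, while tomboy20 and tomboy40 then had a peak in topi and ttm2 in bam, aly and topi. With a -log10 q of 10 or more, 3 members kept it, against 9.56% of genes, as ttm3 lost its 72h peak.

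At tomboy20 the 48h peak covered 185 bp at the higher end (3R:10735859-10736043), with the authors' fold enrichment of 2.80 and a -log10 q of 21.2. At 72h the peak was 820 bp long and covered the whole gene (3R:10735240-10736059), with a fold of 5.87 and a -log10 q of 79.6. Its summit lay 3 bp beyond the higher end, and its fold was at the 85.2 percentile of that list. No peak overlapped the window in bam, the heat shock control, aly or topi. A weak topi peak (fold 1.73) lay outside the window, with its summit 612 bp before the lower end.

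At 72h the peaks at the ends of tomboy40 and ttm3 and at the lower end of ttm2 had smaller folds than that of tomboy20. These folds were at the 28.5 (tomboy40), 18.7 (ttm3) and 25.4 (ttm2) percentile of the 72h list. tomboy40 had 1 peak at 72h at its lower end (2R:6225545-6225685), with a fold of 2.30, a -log10 q of 16.4 and its summit 1 bp outside the gene. In topi a weak peak (fold 1.69) lay inside tomboy40, 402 bp from that end, and none did in bam, the heat shock control, 48h or aly. ttm2 had a peak at its lower end at 48h (3L:275126-275236, fold 1.56, -log10 q 4.41) and at 72h (3L:275078-275220, fold 2.24, -log10 q 14.1). This end lies 137 bp from the gene miple2. A second, stronger peak beyond the higher end of ttm2 was present in all 6 conditions, with a fold of 3.33 to 4.62 and its summit 254 to 328 bp outside the gene, towards RhoGEF3. At 48h and 72h that peak also reached into the window at the higher end. ttm3 had a peak at its lower end at 72h (2L:22079602-22079731, fold 2.09, -log10 q 6.58, summit 18 bp inside the gene), and none at either end in the other conditions.

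ttm50 differed from the 4 copies in chromatin as it did in RNA. A peak lay at its higher end in all 6 conditions, with a fold of 8.02 (bam), 8.11 (heat shock control), 8.77 (48h), 9.91 (72h), 11.6 (aly) and 8.74 (topi). Its summit stayed 9 to 19 bp beyond the gene end, and its fold was at or above the 94.9 percentile of each list. The nearer end of the gene CG2712 lies 279 bp further on, and the 72h and aly peaks reached into it. A weak peak (fold 1.65) at the lower end of ttm50, 35 bp from the gene dwg, was listed at 72h.

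**Figure D4:**
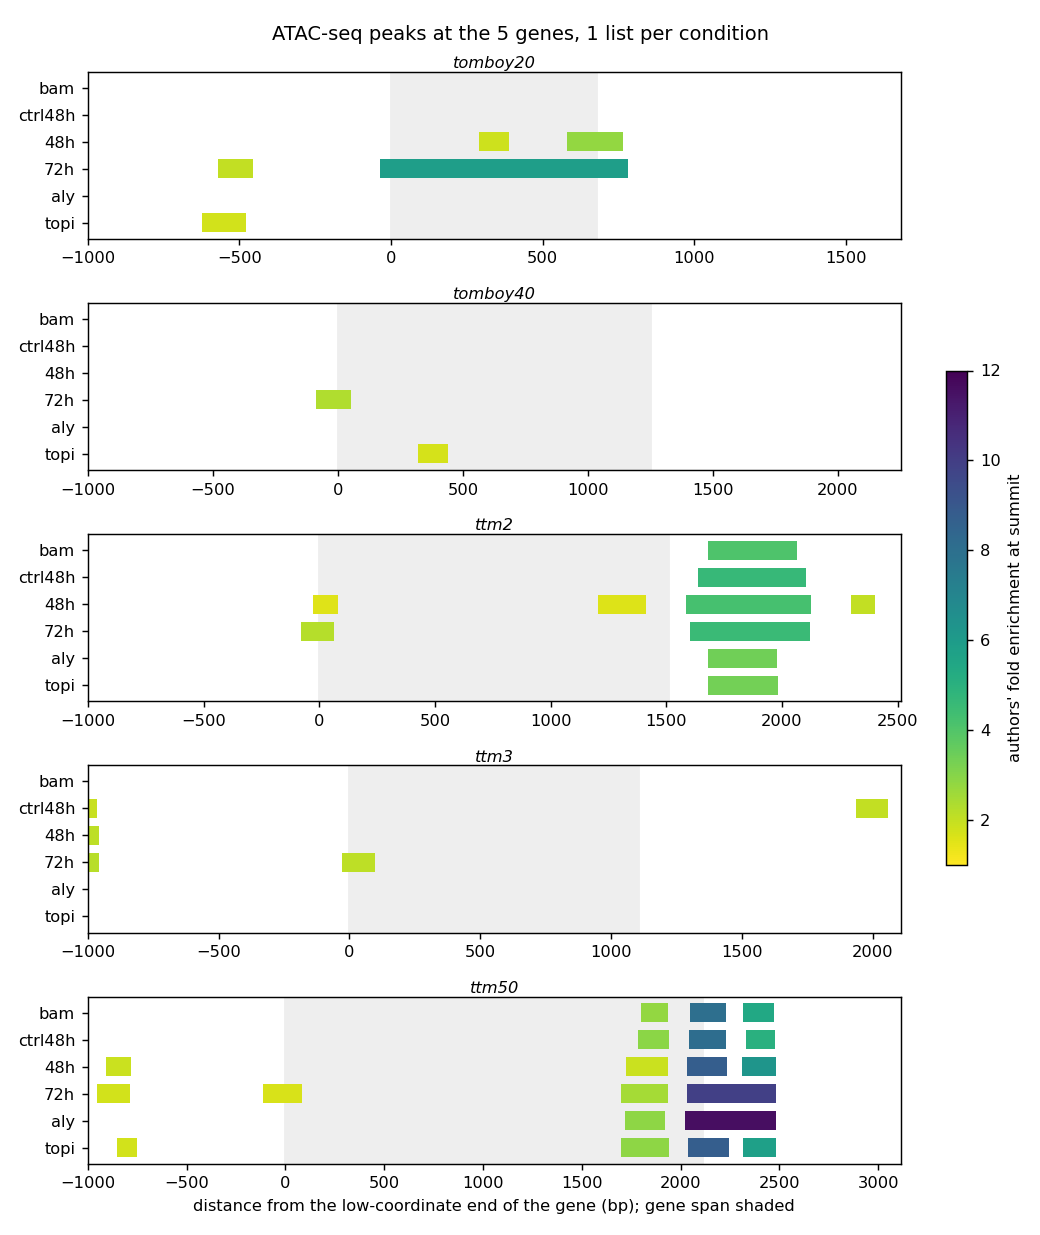
The authors' ATAC-seq peaks around the 5 genes in 6 conditions (1 list each, no replicates); the x axis is the distance in bp from the end of the gene with the lower coordinate, grey marks the gene and colour the authors' fold enrichment at the summit. Peaks within 100 bp of the gene ends of tomboy20, tomboy40, ttm2 and ttm3 are listed at 48h or 72h and, for that window, not in bam, ctrl48h (the heat shock control), aly or topi, while ttm50 has 1 in every row.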

How the data were processed

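RNA-seq, ATAC-seq and CAGE were made on testes as described above. Per the submitters' processing notes, the build was dm6, and the tools named include STAR (2.5.1b, 2.5.4b), MACS2 2.1.1, BWA 0.7.10 and Trim Galore 0.4.1, with no role given. The deposited RNA-seq and CAGE files hold raw counts per gene and per cluster. No source used here names the counting tool or its strand setting. For each condition the authors deposited 1 peak list, with a fold enrichment ratio and a -log10 q per peak, and 1 nucleosome map, with an occupancy fraction and counts of reads. No source used here says how replicates were combined.

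The members and gene lists were chosen with earlier results of these data known. edgeR 4.0.16 in R 4.3.3 (filterByExpr, TMM, quasi-likelihood F test, group only) was fitted to all 8 RNA-seq libraries and 13495 genes, with Benjamini-Hochberg adjustment, calls at an adjusted p below 0.05 and beside it an absolute log2 change of 1 or more. The test was checked on simulated counts. Alternatives were DESeq2 1.42.0 and its size factors, library size alone, no filter, only the compared groups, a replicate block, the CAGE spread, totals without the mitochondrial genome, each library left out, other windows and peak thresholds, and a prior count of 0.5. SE is the log2 change divided by the root of F. Against 0 counts a fold is a bound, with the group's floor set to 3 counts in all; floors and the 95% intervals cover counting error only. Between the 2 libraries of a group, 7.12% to 7.45% of genes differed at an unadjusted chi-square p below 0.05. That is little more than counting noise gives, in all 4 groups alike. Replicate 2 also held more counts than replicate 1 by a similar factor in all 4 groups. The totals were 24001589 and 21552361 for bam and 28984275 and 25887623 for 48h. They were 24243507 and 21868803 for 72h and 22442930 and 20064489 for aly. Whether the 2 libraries of a group are separate samples cannot be told from these values, and no pair was merged. The RNA-seq p-values rest on this narrow spread, so the wider CAGE spread was tried. Beyond counting noise, the spread common to all genes was a coefficient of variation of 2.11% between RNA-seq libraries and 17.3% between CAGE libraries. It is the root of edgeR's common dispersion. Low counts differed by more, such as 7 and 18 reads of tomboy20 in bam. Gene positions came from RefSeq's table of the same assembly (Release 6 plus ISO1 MT), which gives no strand. Lists were matched by symbol. Named were the 5 genes, Tom20, Tom40, the 2 general import genes of smallest p in each comparison, the further copies and the 3 genes most like each. Host genes, neighbours and markers were named for their values beside these. CAGE clusters carry numbers only and were not tied to genes, so the planned CAGE comparison was not run and CAGE served for its spread. No sequence was used.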

Additional observations from a re-analysis of the deposited data

How the results depend on the processing

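tomboy20, tomboy40, ttm2 and ttm3 kept their direction and call in the 5 comparisons other than bam with aly under all 12 alternatives of scaling, test, filter, samples and left-out library counted for each. The replicate block was one of them: adding the replicate number moved the genes called higher from bam to 72h to 6229 from 6226. The numbers do not pair the samples (correlations of deviations 0.0298 to 0.0961), and the block changed no call of the 5 genes, Tom20 or Tom40. Calls of the other named genes were not read singly under any alternative. From bam to aly, with only the compared groups, tomboy20 was not kept by the filter, which left 1 member called lower, and 0 of them at 2-fold. Given the wider spread of the CAGE libraries, 0 members were called higher from 72h to aly, as ttm50 lost its call, and ttm50 was not called from bam to 72h (adjusted p = 0.154). ttm50 from 48h to 72h was -0.051 on the log2 scale with library size alone (adjusted p = 0.209), 0.06 with no filter on low counts (0.147), and 0.10 and 0.07 without either 48h library. Tom20 from 48h to 72h was -0.25 with library size alone, -0.13 with no filter, -0.11 with only the compared groups, and -0.15 to 0.12 with 1 library left out. Tom40 from bam to 72h was 0.17 with DESeq2's size factors and 0.16 with its test, and from 48h to aly -0.012 to 0.20 with 1 library left out; a lone library is then assumed to vary like the other groups. The cause was not tested, but scaling shifted the median of all genes: from 48h to 72h it was 0.16, and -0.16 with library size alone. Genes called lower by 2-fold or more from 48h to 72h numbered 1013, and 2209 with library size alone, 1770 with no filter, 1621 with only the compared groups, and 1671 and 1635 without 48h replicate 1 or 2. With the CAGE spread, genes called lower there were 2478 in place of 4632, and genes called higher from 48h to aly 3330 in place of 5365. Of the general import genes, those called higher from 72h to aly were 7 with library size alone and 0 with the CAGE spread (4 otherwise), and those called lower from bam to 72h were 2 with that spread (4 otherwise); of the further copies called lower from bam to aly, 0 or 1 were left in 7 of 12 alternatives (2 otherwise), and 2 were called higher with the CAGE spread or without aly replicate 2 (4 otherwise). With windows of 500 bp, 2 members had a peak in bam, 2 in the heat shock control, 2 in aly and 4 in topi, against 69.0%, 69.2%, 70.1% and 73.7% of genes. With a -log10 q of 10 or more, 4 had one at 72h, against 67.3%. Of 30 counts of nucleosome positions, 20 changed by over 1.5 times with a window of 200 bp. Summed counts of 0 to 194 in bam and aly limit the folds of the 4 copies, and 2 libraries a group limit every test. The planned CAGE comparison and its alternatives were not run, since the clusters are not tied to genes.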

Other observations

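The nucleosome maps, 1 per condition, gave a further description of the same genes. A nucleosome position was counted when its centre lay within 500 bp of a gene end, and 75.5% to 83.2% of 13946 placed genes had 1 or more. tomboy20 had none in bam, the heat shock control and aly, 5 at 48h, 7 at 72h and 1 in topi. The occupancy of the 7 positions at 72h had a median of 0.831, from 73 reads in all. tomboy40 had 2 positions at 72h and 1 in topi, from 10 and 7 reads, and none in the other 4 maps. ttm3 had none in aly and 1 to 3 elsewhere. ttm2 had 2 to 9 and ttm50 4 to 8 positions in every map. With a window of 200 bp tomboy40 had no position in any map, ttm3 had none in bam, 48h, aly and topi, and ttm50 had 2 to 4. Coverage where no position was called was not analysed here.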
